A study of Mus musculus with 6 samples.

Results

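The genes described here encode the axon guidance ligands and receptors of the developing ventral midbrain, in mouse embryos without the homeobox transcription factor Pitx3. Members were all array probes whose platform gene symbol named an Eph receptor, an ephrin, a semaphorin, a plexin, a neuropilin, a Slit, a Robo, a netrin, an Unc5 receptor, Dcc or Neo1. The rule used names only and no measured value. It gave 117 probes for 67 of the 17865 named genes on the array, in 17 families. There was 1 probe for 44 of these genes and up to 7 for the other 23. No probe carried the symbol Slit3.

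Ventral midbrain RNA of Pitx3-/- embryos at E14.5 was compared with that of Pitx3+/+ embryos of the same stage. There were 3 mutant pools, each of 3 ventral midbrains, and 1 wild-type RNA from 10 ventral midbrains. Each mutant pool was hybridised to 2 arrays with the dyes exchanged, and the other channel of all 6 arrays held the wild-type RNA, called the reference here. How the mutant allele was made, and the strain and sex of the embryos, were not stated in the labels used here. All cells of the dissected tissue were measured together, so fewer cells of a type and less RNA per cell cannot be told apart. Since there was a single reference RNA, the spread of wild-type tissue is not part of any error given below, and pools of embryos hide the spread between embryos.

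Growing axons read guidance cues with receptors on the growth cone. Slits act through Robo receptors, netrins attract through Dcc and repel through Unc5 receptors, class 3 semaphorins bind neuropilins that signal with class A plexins, other semaphorins bind plexins directly, and ephrins and Eph receptors signal in both directions at cell contacts. Midbrain dopaminergic axons use several of these systems when they leave the ventral midbrain and run forward to the striatum and cortex. Pitx3 is a paired-type homeodomain factor made in midbrain dopaminergic neurons, and its mutants lose many neurons of the substantia nigra.

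Upstream sequences are given for 2 pairs of genes, because the results below turn on the ligand genes Slit2 and Sema5b and because Robo3 and Robo4 were the only members, among those with a promoter entry, that held the letters searched for. Pitx factors bind bicoid-type sites with the core TAATCC. That core was searched on both strands (GGATTA on the other) in the 250 bases before each transcript start in RefSeq, build GRCm38.p6. Promoters were found for 57 of the 67 genes. The core was in 2 of their 73 promoters (2.74%), against 2054 of 32851 promoters of all genes (6.25%). Each sequence runs 5′ to 3′ on the strand of its gene, and capitals mark the core.
Slit2 (chr5:47982905-47983154, plus strand): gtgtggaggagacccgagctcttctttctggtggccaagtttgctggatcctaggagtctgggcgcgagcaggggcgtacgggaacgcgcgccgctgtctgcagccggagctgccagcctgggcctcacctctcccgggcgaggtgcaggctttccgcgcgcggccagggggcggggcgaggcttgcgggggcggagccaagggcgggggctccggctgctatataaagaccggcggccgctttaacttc
Sema5b (chr16:35541112-35541361, plus strand): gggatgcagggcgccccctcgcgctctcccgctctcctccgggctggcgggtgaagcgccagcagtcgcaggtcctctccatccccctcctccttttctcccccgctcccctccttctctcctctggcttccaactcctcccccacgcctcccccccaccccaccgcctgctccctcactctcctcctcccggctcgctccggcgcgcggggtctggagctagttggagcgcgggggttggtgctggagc
Robo3 (chr9:37433176-37433425, minus strand): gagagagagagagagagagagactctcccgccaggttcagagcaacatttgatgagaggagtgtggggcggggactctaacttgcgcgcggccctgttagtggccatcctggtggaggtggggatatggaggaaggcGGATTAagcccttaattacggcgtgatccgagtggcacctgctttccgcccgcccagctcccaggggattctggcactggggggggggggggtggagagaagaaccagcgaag
Robo4 (chr9:37401722-37401971, plus strand): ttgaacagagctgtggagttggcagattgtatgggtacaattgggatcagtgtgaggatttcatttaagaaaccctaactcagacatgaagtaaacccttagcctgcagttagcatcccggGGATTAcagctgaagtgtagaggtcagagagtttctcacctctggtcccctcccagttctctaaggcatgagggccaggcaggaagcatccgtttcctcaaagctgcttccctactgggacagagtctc
The Slit2 and Sema5b windows held no core and were rich in G and C (69.6% and 72.0%, against 61.2% for Robo3 and 49.6% for Robo4). In both Robo windows the core lay on the strand opposite to the gene. A match is a run of letters and not a binding site.

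All values below are log2 ratios of mutant over reference, as mean ± SD over the 3 pools (n = 3 throughout), unless a signal intensity is named. An offset of 50 was added to every background-corrected intensity, which pulls ratios towards 0, most of all for dim probes. Median spot signals of the 6 arrays were 70.6 to 77.5 in the Cy5 channel and 46.2 to 50.4 in the Cy3 channel. A probe was taken as above background where its signal exceeded the local background by 2 SDs, in 1 or both channels, on all 6 arrays. This held for 55 of the 117 guidance probes (47.0%), against 43.7% of all probes. It gave 39 of the 67 genes at least 1 such probe (58.2%, against 53.0% of all named genes). The array's Pitx3 probe had ratios of 0.036, 0.0092 and 0.034 and was above background on 0 arrays, so it is no check of the genotype. Of 11 markers of dopaminergic neurons 8 were above background on all arrays, among them Th, Ddc and Nr4a2, while Slc6a3 was above background in the reference on 2 arrays only. The pools fell into a pair and a single one: pools 1 and 2 correlated at 0.59 across 31769 probes, pool 3 at -0.21 with pool 1 and at -0.19 with pool 2. These correlations share the reference RNA and are descriptions. Counts of guidance probes, and the ratios of those that passed the threshold without pool 3, are given below with and without it. Ratios without pool 3 are not given for other single probes.

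As a class the guidance genes above background stood close to the reference level in the mutant midbrain. For 39 genes the brightest probe was above background on all arrays. Their median was -0.00018, with 19 above 0 and 20 below, against a median of -0.0014 over all 13882 probes above background. The median over the 67 genes, each by its brightest probe, was 0.0013, against 0.00016 over all named genes. Of the 67 genes 38 were above 0 and 29 below. These include 28 genes with no probe above background on all arrays, which are not shown to be unchanged. The extremes among these genes were Slit2, a repellent of commissural and dopaminergic axons, at 0.085 ± 0.082 and Epha7, an ephrin-A receptor, at -0.071 ± 0.097. With limma and Benjamini-Hochberg adjustment over all 31769 probes, 0 guidance probes passed 0.05 (lowest adjusted p 0.91), and 0.0% of all probes did. At an unadjusted p under 0.05 by the same test, 4 guidance probes were higher (3.42%) and 2 lower (1.71%), against 2.46% and 2.41% of all probes. In all 3 pools 20 guidance probes were above 0 (17.1%) and 10 below (8.55%), against 12.9% and 12.6% of all probes. The shares at an unadjusted p lay near the background of the array. Of the 20 probes above 0 in all pools, 3 were Slit probes and 4 were Sema5b probes, so several report the same gene.

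**Figure D1:**
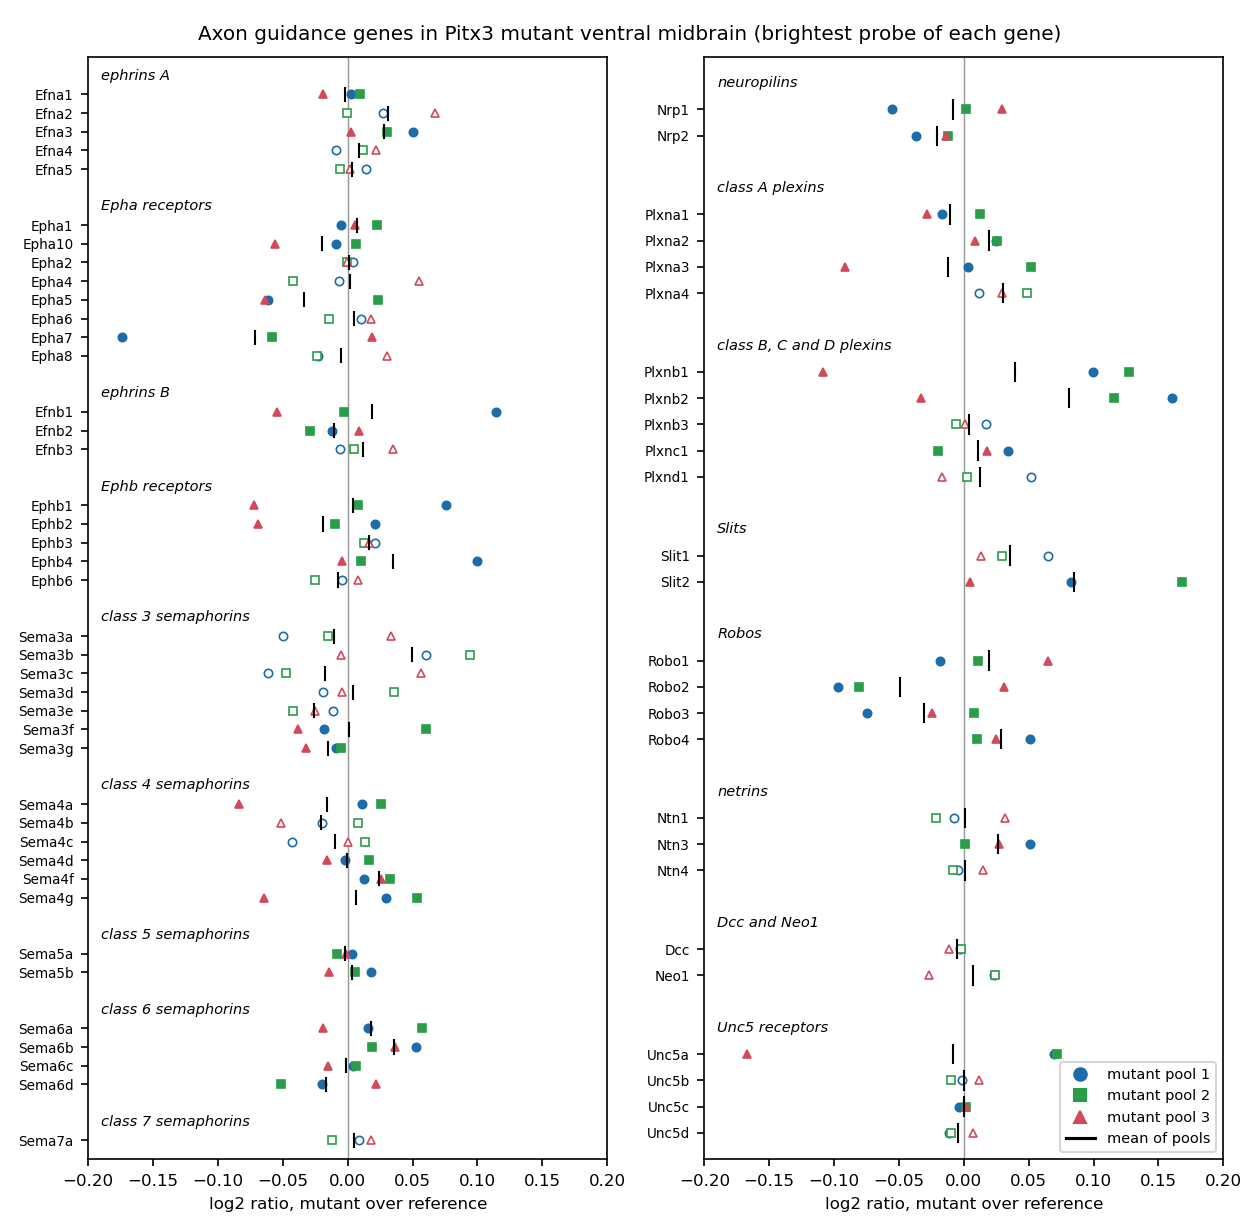
Log2 ratio of mutant over reference (horizontal axis) of the brightest probe of each of the 67 guidance genes, by family. Blue circles, green squares and red triangles are mutant pools 1, 2 and 3, filled where the probe was above background on all 6 arrays, and the black bar is their mean. Most means lie within 0.05 of 0, and the means of Slit2, at 0.085, and Epha7, at -0.071, are the extremes.

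The intervals of the means were narrow. For all 55 guidance probes above background, the 95% interval of the mean from limma lay within 0.32 of 0 on the log2 scale. This was also the case with an offset of 10 in place of 50. Over all probes above background, 99.1% met the same limit. The median half-width of the interval was 0.041 for the guidance probes and 0.044 for all probes, and the median SD between pools was 0.029 and 0.034. These limits hold for ratios as measured on the array, with the offset. They do not cover the 28 genes with no probe above background on all arrays. Of these, 16 had no probe above background on any array: Dcc, Efna4, Efna5, Epha4, Epha6, Epha8, Ephb3, Ephb6, Neo1, Ntn1, Plxna4, Plxnd1, Sema3d, Sema4b, Sema4c and Sema7a. Ratios of such probes say little about the transcript in either group.

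Slits are secreted ligands, and the Slit family had the highest family median, 0.061 over 2 genes. At the brightest Slit2 probe the ratio was 0.083 in pool 1, 0.17 in pool 2 and 0.0048 in pool 3. Normalised intensities of this probe were 232, 221 and 248 in the mutant channel, against 219, 197 and 247 in the reference channel. Pools 1 and 2 were above the reference and pool 3 was level with it. The mean of 0.085 ± 0.082 had a 95% interval of 0.00016 to 0.17 and an unadjusted limma p of 0.0497, and 5 of 6 arrays were above 0. The other 3 Slit2 probes stood between 0.016 and 0.027, so all 4 were above 0 but differed in size. With median centring in place of loess the brightest probe stood at 0.018, where the median of all probes above background was -0.042. Slit1, which lies on chromosome 19 as Pitx3 does, had ratios of 0.065, 0.029 and 0.013 in the 3 pools. It was above background on 2 arrays in the mutant and on 1 in the reference. Its mean of 0.036 ± 0.026 came from the arrays with the mutant in Cy3 (0.077), while those with the mutant in Cy5 gave -0.0048.

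Among the Robo receptors of the Slits all 4 genes were above background, with a family median of -0.0058. Robo2, which keeps longitudinal axons away from the ventral midline, had ratios of -0.097, -0.081 and 0.031. Its intensities, offset included, were 64.5, 66.0 and 70.4 in the mutant, against 69.0, 69.9 and 68.9 in the reference. The mean intensity over the offset was 18.0, so the probe was dim. Pools 1 and 2 were below the reference and pool 3 above it, and the mean was -0.049 ± 0.070. Robo1, which acts with Robo2 in the same axons, stood at -0.019, 0.011 and 0.065 (mean 0.019 ± 0.042), so its pools lay on both sides of 0. Robo3, which lets commissural axons cross the midline, stood at -0.075, 0.0078 and -0.025 (mean -0.031 ± 0.042). Robo4, known for its role in blood vessels, stood at 0.051, 0.010 and 0.025 (mean 0.029 ± 0.021) and was the Robo above 0 in all 3 pools. Robo3 and Robo4, with the core in their upstream windows, thus had mean ratios of opposite sign, and neither passed the test.

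**Figure D2:**
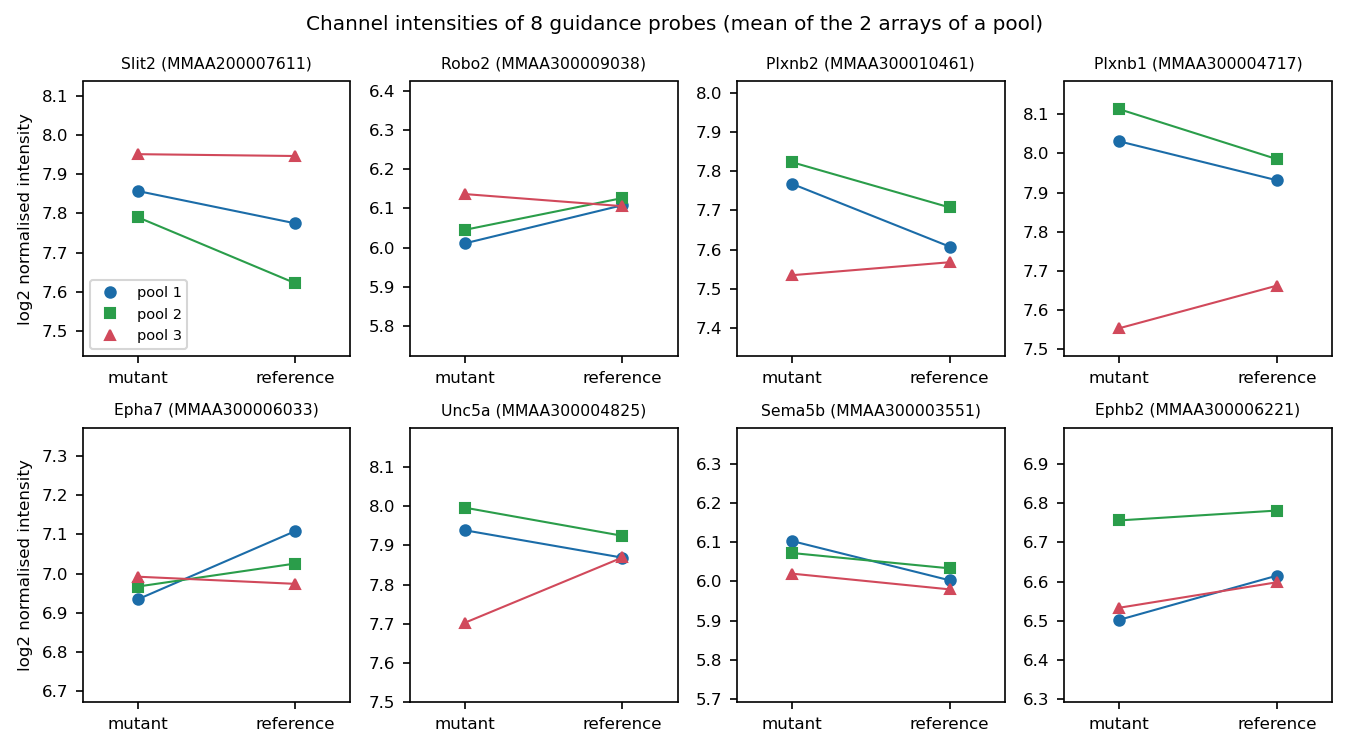
Normalised log2 intensity, offset included, of 8 guidance probes in the mutant channel (left) and the reference channel (right), 1 line per pool, each point the mean of the 2 arrays of the pool. Slit2 and Plxnb2 slope down to the reference in pools 1 and 2 and are near level in pool 3, and Unc5a slopes up in pool 3.

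Netrins are ligands of Dcc and the Unc5 receptors. The Ntn1 probe, for the main netrin of the floor plate, was above background on no array and read -0.0077, -0.021 and 0.032. Dcc read -0.0027, -0.0026 and -0.012, also with no array above background, so neither gene could be assessed. Ntn3, the family's member above background, had ratios of 0.051, 0.0010 and 0.027 (mean 0.026 ± 0.025). Unc5c, a repulsive netrin receptor that dopaminergic neurons are known to carry, stood at -0.0038, 0.0017 and 0.0015, near 0 in every pool. Its probe was dim, with an intensity of 16.1 over the offset, and above background on 5 arrays in each channel. The dye orientations gave 0.073 with the mutant in Cy5 and -0.073 with the mutant in Cy3, which cancel in the pool values. Unc5a had the widest spread of all guidance probes, with 0.070 and 0.072 in pools 1 and 2 and -0.17 in pool 3 (mean -0.0084 ± 0.14). It also split by dye, at -0.26 with the mutant in Cy5 and 0.25 with the mutant in Cy3. Unc5b, Unc5d, Ntn4 and Neo1 lay between -0.0047 and 0.0068.

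Semaphorins are the largest ligand group, with 20 genes. In class 3, the secreted ones, the family median was -0.011 over 7 genes. Sema3a, a repellent of many axons, had ratios of -0.050, -0.016 and 0.034 (mean -0.011 ± 0.042). Sema3c, which attracts dopaminergic axons in culture, had -0.061, -0.048 and 0.056 (mean -0.018 ± 0.064). In both genes pools 1 and 2 were below 0 and pool 3 above it, and neither gene was above background on all arrays. Sema3f, which repels dopaminergic axons, had -0.018, 0.060 and -0.038 at its brightest probe (mean 0.0013 ± 0.052). A second Sema3f probe above background had 0.028, 0.029 and -0.0068 (mean 0.017 ± 0.021). Sema3b, with 0.060, 0.094 and -0.0054, had the highest mean of the class at its brightest probe, 0.050 ± 0.051, and was above background on 3 arrays in each channel. Sema3g, at -0.015 ± 0.015, and Sema3e, at -0.026 ± 0.015, were below 0 in all 3 pools at their brightest probes.

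Among the membrane-bound semaphorins, Sema5b held the probe with the lowest p of all guidance probes. This transmembrane ligand is known as a repellent in forebrain and retina. That probe had ratios of 0.10, 0.039 and 0.040. The intensities, offset included, were 68.7, 67.3 and 64.9 in the mutant, against 64.1, 65.5 and 63.1 in the reference. Each pool was thus above its own reference, but the probe was dim, with a mean intensity of 15.6 over the offset. The mean was 0.060 ± 0.035, with a 95% interval of 0.015 to 0.10 and an unadjusted limma p of 0.019. This probe and a second Sema5b probe, at 0.026 ± 0.029, were above 0 on all 6 arrays. They were the only guidance probes with that property, which 1.28% of all probes had. Another, at 0.029 ± 0.0039 (unadjusted limma p 0.047), was above background on no array. All 5 Sema5b probes had means above 0, but the brightest stood at 0.0030 ± 0.016 and below 0 in pool 3.

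Sema6b, a transmembrane semaphorin that signals through class A plexins, had ratios of 0.053, 0.018 and 0.037, all above 0 (mean 0.036 ± 0.017, unadjusted limma p 0.039). Its arrays split by dye: the mean was -0.088 with the mutant in Cy5 and 0.16 with the mutant in Cy3, and the difference cancels in the pool values. Sema4f stood at 0.013, 0.033 and 0.026 (mean 0.024 ± 0.010). Sema7a, the membrane-anchored ligand of plexin C1 with a part in dopaminergic wiring, read 0.0089, -0.012 and 0.018 with no array above background. The other brightest probes of classes 4 to 6 lay between -0.021 (Sema4b) and 0.018 (Sema6a).

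**Figure D3:**
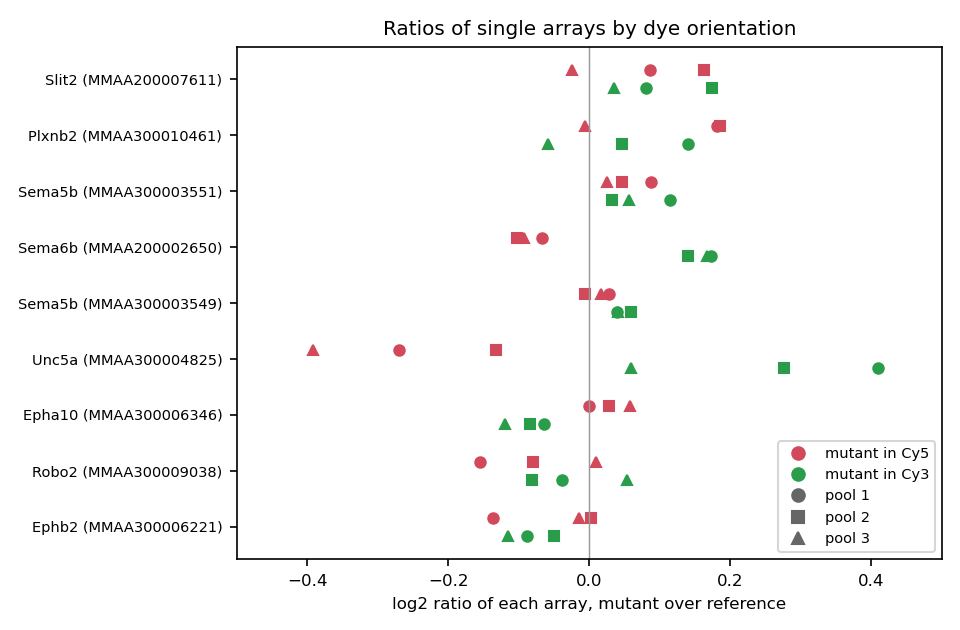
Log2 ratio of mutant over reference on each single array (horizontal axis) for 9 guidance probes; red marks arrays with the mutant in Cy5, green those with the mutant in Cy3, and shapes mark the pools. Sema6b and Unc5a separate by dye, while the upper Sema5b probe lies above 0 on all 6 arrays.

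Dye splits of this kind were common. The 2 dye orientations gave means of opposite sign for 82 of the 117 guidance probes. The share over all probes was not counted, so the split is not shown to be particular to guidance probes. Among guidance probes above background the median difference between orientations was 0.065 in size, larger than the median mean ratio of 0.016 in size.

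Neuropilins and plexins are the semaphorin receptors. Nrp1, which binds class 3 semaphorins such as Sema3a, had ratios of -0.055, 0.0014 and 0.029 (mean -0.0083 ± 0.043), with its 4 probes between -0.017 and 0.0046. Nrp2, the partner for Sema3f, had -0.037, -0.013 and -0.014 and was below 0 in every pool (mean -0.021 ± 0.014). A further probe under an old symbol of Nrp2 stood at 0.012, with no array above background. Class A plexins, the signalling partners of neuropilins, had a family median of 0.0043. The largest mean among those above background was that of Plxna2, with 0.025, 0.026 and 0.0083 (mean 0.020 ± 0.0098).

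Class B, C and D plexins had a median of 0.012, and medians of 0.052, 0.0023 and -0.017 in pools 1, 2 and 3. All 5 genes had means above 0, as did 9000 of all 17865 named genes. Of the 5 genes, 3 were above background on all arrays and 0 were above 0 in all 3 pools. The most marked was Plxnb2, a receptor for class 4 semaphorins with a role in neural progenitors, with ratios of 0.16, 0.12 and -0.033. Its intensities were 218, 226 and 185 in the mutant, against 195, 209 and 190 in the reference. Pools 1 and 2 were above the reference and pool 3 slightly below, so the mean of 0.081 ± 0.10 did not exceed the spread. A second, dimmer Plxnb2 probe above background stood at -0.0033. With median centring the first stood at 0.0053, where the median of all probes above background was -0.042. Plxnb1, the receptor of Sema4d, named after its values were seen, had the same signs, with 0.099, 0.13 and -0.11 (mean 0.039 ± 0.13). Plxnc1, the receptor of Sema7a, had 0.034, -0.020 and 0.018 (mean 0.011 ± 0.028).

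Ephrins are the membrane-bound ligands of Eph receptors. Ephrins A had a median of 0.0084 over 5 genes and ephrins B 0.011 over 3. Efna3, a ligand of EphA receptors, stood at 0.050, 0.031 and 0.0027 at its brightest probe, all above 0 (mean 0.028 ± 0.024). Efna5, a ligand with a part in the topography of dopaminergic axons, read 0.014, -0.0056 and 0.0017 with no array above background. Efnb1 stood at 0.11 in pool 1, against -0.0025 and -0.055 in pools 2 and 3, and its mean of 0.019 ± 0.086 rested on pool 1. Efnb2, a ligand of EphB receptors, had -0.012, -0.029 and 0.0084 (mean -0.011 ± 0.019). Its intensity in pool 3 was 105 in the mutant and 104 in the reference, above the 63.6 to 66.0 of the other pools, in both channels alike.

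EphA receptors had a median of -0.0021 over 8 genes. Epha7 had ratios of -0.17, -0.058 and 0.019. Its intensities were 122, 125 and 127 in the mutant, against 138, 130 and 126 in the reference. Pools 1 and 2 were below the reference and pool 3 was not, and the mean of -0.071 ± 0.097 was smaller than its spread. Epha5, the main receptor of ephrin-A5 on dopaminergic axons, had -0.062, 0.024 and -0.064 at its brightest probe (mean -0.034 ± 0.050), and its other 5 probes lay between -0.015 and 0.015. Epha10, an Eph receptor without kinase activity, had 1 probe at -0.033, -0.028 and -0.032, the tightest of the probes with an unadjusted p under 0.05 (mean -0.031 ± 0.0024, unadjusted limma p 0.040). On its arrays with the mutant in Cy5 that probe stood at 0.028 and on those with the mutant in Cy3 at -0.090. Its other 5 probes ran from -0.020 to 0.017.

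EphB receptors had a median of 0.0039 over 5 genes. Ephb1, which is found on nigral dopaminergic neurons, had 0.076, 0.0077 and -0.072, evenly spread about 0 (mean 0.0039 ± 0.074). Ephb2 had 7 probes, which disagreed. One had -0.11, -0.024 and -0.065, below 0 in each pool, with intensities of 90.7, 108 and 92.6 in the mutant against 98.0, 110 and 96.9 in the reference. Its mean was -0.067 ± 0.044, with an unadjusted limma p of 0.021. Another had 0.054, 0.082 and -0.0025 (mean 0.044 ± 0.043), and the remaining 5 lay between -0.019 and 0.0086. In that second probe pool 2 was brighter in both channels, at 188 in the mutant and 177 in the reference, while the other pools lay between 81.4 and 89.2. Ephb4, known from veins, had a mean of 0.035 ± 0.056.

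**Figure D4:**
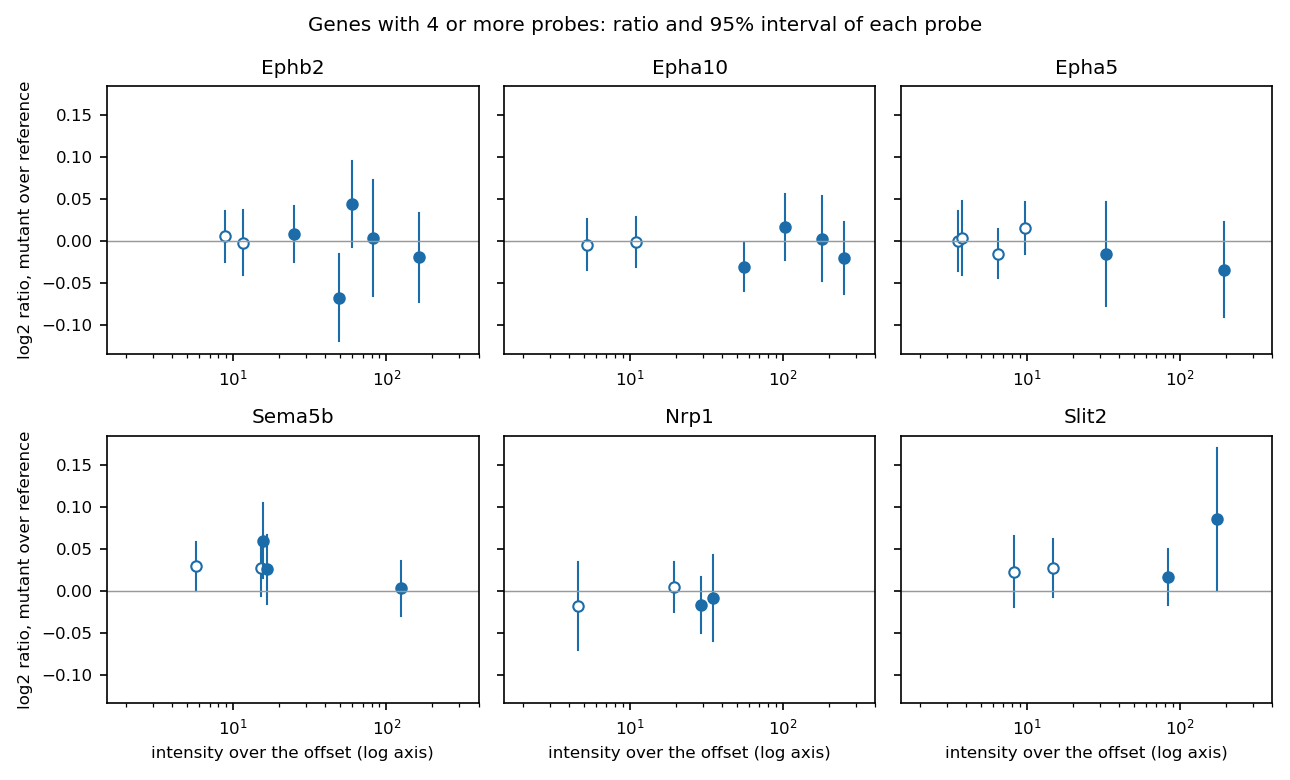
Mean log2 ratio of mutant over reference (vertical axis) with its 95% interval from limma, against intensity over the offset (log axis), for each probe of the 6 guidance genes with 4 or more probes. Filled points were above background on all 6 arrays. The 7 Ephb2 probes run from -0.067 to 0.044, while all Sema5b and all Slit2 probes lie above 0.

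In 43 of the 117 guidance probes (36.8%, against 33.8% of all probes), pools 1 and 2 had 1 sign and pool 3 the other. Among those above background it was 23 of 55 (41.8%, against 42.6% of all such probes). Across these 55 probes the ratios correlated at 0.61 between pools 1 and 2, at -0.23 between pools 1 and 3 and at -0.33 between pools 2 and 3, all of which share the reference RNA. Limma was also fitted on pools 1 and 2 alone, with adjustment over all probes. At an adjusted p under 0.05, 3 guidance probes were higher and 1 lower, against 2.01% and 2.85% of all probes. Together they made up 3.42% of guidance probes, below the 4.86% of all probes. Pools 1 and 2 were paired because they were alike in these same data, so their p-values are descriptions and no test. The 4 were Slit2 (0.13, limma adjusted p 0.036), Plxnb2 (0.14, 0.015) and Plxnb1 (0.11, 0.020) as higher and Robo2 (-0.089, 0.034) as lower. Of the 4, only Slit2 had the same sign in pool 3, and with all 3 pools none passed.

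Some markers of other cells in or near the dissection had the same split, and others did not. Dlx1, a forebrain GABAergic gene, stood at -0.90, -0.94 and 0.050, and Isl1, of oculomotor and other neurons, at -0.63, -0.54 and 0.054. Phox2a, at -0.015, 0.0049 and 0.023, and Chat, at 0.0015, -0.0074 and 0.022, are also on the oculomotor list. Both were above background on 0 arrays, so Isl1 alone does not show the split for oculomotor neurons. Within the list of Dlx-type markers, Dlx2 stood at -0.46, -0.42 and 0.019. Gad1, the brightest of that list, did not have the split, at -0.049, 0.093 and 0.12. The summed signal of 6 measured Dlx-type markers was 352 to 487 above the offset in the mutant and 453 to 495 in the reference, and the log2 ratios of the sums, offset included, were -0.29, -0.22 and 0.064. The summed ratio of the 4 midbrain GABAergic markers was 0.24, 0.33 and -0.046. Lists without this split had summed ratios of -0.40, -0.27 and -0.073 (3 red nucleus markers), 0.14, 0.22 and 0.086 (2 serotonergic markers) and 0.046, 0.048 and 0.033 (4 microglial markers). The 5 radial glia markers summed to 0.079, -0.033 and -0.077: Nes stood at 0.33, 0.26 and -0.093, but Sox2 at -0.10, -0.054 and -0.026 and Fabp7 at 0.073, -0.063 and -0.087. The 11 dopaminergic markers did not go 1 way. Their sum was 1368 to 1954 above the offset in the mutant and 1166 to 1425 in the reference. The log2 ratios of the sums, offset included, were 0.30, 0.34 and 0.16. En2 stood at 0.79 ± 0.11, En1 at 0.69 ± 0.26 and Foxa2 at 0.18 ± 0.14. Slc18a2, at -0.36 ± 0.032, Th, at -0.14 ± 0.14, Nr4a2, at -0.13 ± 0.092, and Slc6a3, at -0.12 ± 0.018, had means below 0. The part of these cell types in the ratios of Slit2, Robo2, Epha7 and the B plexins was not tested.

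**Figure D5:**
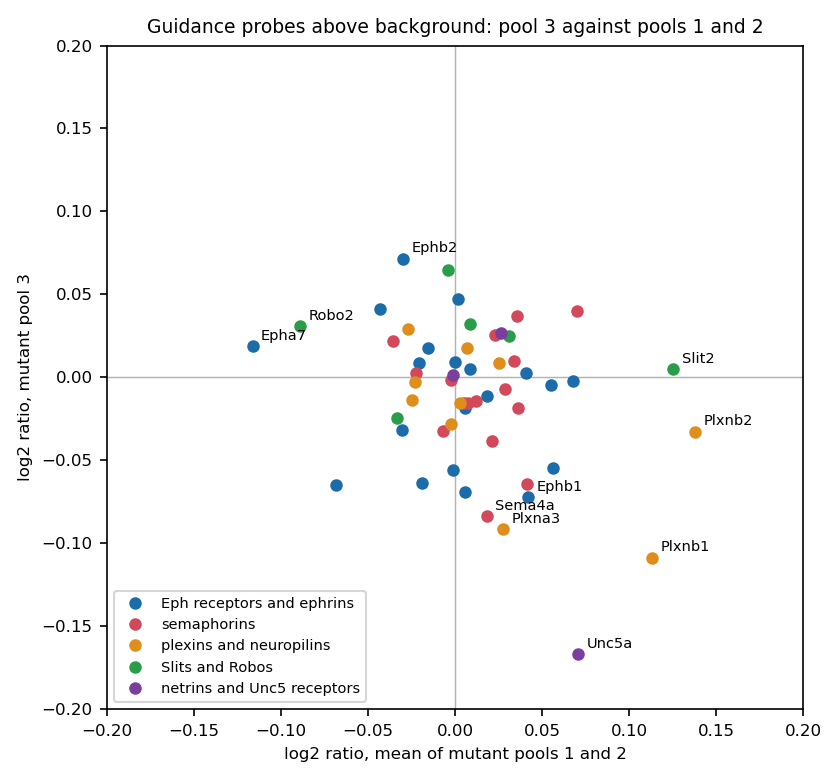
Log2 ratio in mutant pool 3 (vertical axis) against the mean of mutant pools 1 and 2 (horizontal axis) for the 55 guidance probes above background on all 6 arrays, coloured by system. Plxnb2, Plxnb1 and Unc5a lie below 0 in pool 3 and above 0 in pools 1 and 2, Robo2 and Epha7 lie on the opposite side, and Slit2 lies near 0 in pool 3.

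Other genes of the guidance pathways were followed as 1 list of 78 adhesion, adaptor, GTPase and matrix genes. Of 74 measured, 50 were above background. At an unadjusted limma p under 0.05, 4 were higher (5.41%) and 4 lower (5.41%), against 2.86% and 3.02% of all named genes by their brightest probes. After adjustment over all probes 0 passed, and the median of the list was -0.0021. Alcam, an adhesion molecule of growing axons, had 0.17, 0.17 and 0.082, above 0 in each pool (mean 0.14 ± 0.050, unadjusted limma p 0.0016). Spon1, the floor plate protein F-spondin, had 0.40, 0.38 and 0.13, the highest of the list (mean 0.30 ± 0.15, unadjusted limma p 0.0038). Both exceeded every guidance ligand and receptor in the size of their mean. On the lower side Pak2, a kinase downstream of Rac, had a mean of -0.054 ± 0.010, Dpysl3, a collapsin response mediator, -0.052 ± 0.011 and Rasa1, a Ras GTPase-activating protein, -0.073 ± 0.038. Ptk2, the focal adhesion kinase, had 0.040 ± 0.014. Pak2 and Ptk2 changed sign between the dye orientations.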

How the data were processed

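Ventral midbrain RNA of 3 Pitx3-/- pools was measured on 6 two-colour arrays against 1 wild-type RNA. Scanner files as deposited give, per the file headers, an intensity and a local background for every spot in both dyes. The authors' derived files hold intensity values after print-tip loess with a span of 0.4 and no background subtraction, per the labels' protocols, and spots above 2 to the power 15 were kept out of their curve. The deposited series matrix holds log2 ratios, which matched the derived channels, taken as mutant over reference, to 5.0e-06. Versions of the authors' software were not found in the labels.

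From the scanner intensities, limma 3.58.1 in R 4.3.3 was run with normexp (offset 50), global loess (span 0.3), and 3223 of 34992 spots left out as controls. The mean ratio of the 2 arrays of each pool entered lmFit and eBayes for a test against 0, which had 2.74 prior and 2 residual degrees of freedom. P-values were adjusted by Benjamini-Hochberg over 31769 probes, with a threshold of 0.05. Nothing in the sources says more on how the pools were made, so p-values measure the spread between these 3 pools only. Only the limma test and the adjustment were tried on simulated data, with pool ratios drawn independently of each other, while the measured pools correlated. Background correction, offset, loess and dye averaging were not simulated. Raw signals reached 29536, and none was treated as saturated. The number of arrays limits the precision.

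Gene names came from the platform table (26000 probes with 1 symbol, 0 with several, 5769 with none), and all 67 member symbols are current in the RefSeq gene table of GRCm38.p6. The arrays name no build, so only promoter sequences carry coordinates, which are RefSeq's. A gene was represented by its brightest probe. Values in every pool are given for probes with an unadjusted p under 0.05, for the member above background with the largest mean ratio in each family, and for 18 members with a known part in dopaminergic wiring. Of the list of other guidance genes, the 6 with the lowest p are given. Members, lists and this rule were chosen with earlier results of these data known. Alternatives covered the offset, background, normalisation, spread model, filter, dye, probe choice, symbols and each pool left out.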

Additional observations from a re-analysis of the deposited data

Results flagged for a closer look

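Among 6 measures of array quality, each compared over the 6 arrays, the pool 3 array that carried mutant RNA in Cy5 stood apart in 2, both in the Cy3 channel, which held the reference RNA there. Its median Cy3 signal was 46.24, against 49.06 on the nearest other array, and its median Cy3 background was 38.0, against 40.0. In each case the gap made up 0.67 of the range over all arrays, above Dixon's 95% critical value for 6 values. Chance gives such a gap in about 1 in 20 groups. Guidance ratios of pool 3 rest on this array and its dye swap.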

How the results depend on the processing

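Over all probes, 0 passed an adjusted p of 0.05 with limma (1548 at an unadjusted p under 0.05). With an offset of 10 it was 12, with an intensity trend 11, and with the pool as a random block over 6 arrays 18. With 1 pool left out it ranged from 0 to 1543 (without pool 3). Guidance probes at an unadjusted p under 0.05 numbered 6 (5.13%, against 4.87% of all). An offset of 10 gave 9 (8 higher, 1 lower, 7.69% of guidance probes against 5.08% of all). There were 15 with median centring (2 higher, 13 lower, 12.8% of guidance probes against 15.6% of all). Among the 55 guidance probes above background, the main fit gave 3 higher and 2 lower, against 644 and 672 of all 13882 such probes. When limma was refitted on probes above background only, it was 2 of 55. With 1 pool left out the number of guidance probes ranged from 0 (without pool 1) to 15 (without pool 3), with 3 without pool 2. These 3 counts, and that of the refit on probes above background, are not set beside the share of all probes. They therefore say nothing particular to guidance probes. At an adjusted p under 0.05 without pool 3, the shares were 3.42% of guidance probes and 4.86% of all probes. The median over the 67 genes, 0.0013, was 0.0061 with an offset of 10, -0.0052 with median centring, -0.0038 with the authors' deposited ratios and 0.0061 on arrays with the mutant in Cy3, and between 0.00086 and 0.0052 with 1 pool left out. Median centring put the median of all probes above background at -0.042. Of 32 named probes, 11 had the other sign with median centring, 11 on arrays with the mutant in Cy5, 8 with the mutant in Cy3, 8 without pool 1 and 0 with an offset of 10. The named probes of Epha5, Epha7, Plxnb2, Robo2, Slit2 and Sema5b, and the Ephb2 probe with the lowest p, kept their sign under each alternative. The causes were not tested. No probe's depth is known beyond its signal over background, and dim probes, with ratios pulled towards 0, limit the result.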

Other observations

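Beyond the ligands and receptors, Dpysl5, a collapsin response mediator of young neurons, stood at 0.12, 0.21 and 0.016 in pools 1, 2 and 3, and Reln, the secreted glycoprotein reelin, at -0.21, -0.12 and -0.013. Both had the same sign in every pool, with pool 3 nearest to 0, and limma gave both an adjusted p of 0.91 over all probes. Reln was below 0 on all 6 arrays.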
